A study of Bos taurus with 21 samples.

Results

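Most of the genes described here make or use the amino acids serine, proline and asparagine, or bring amino acids into the cell. They are often switched on together when amino acids run short. The members are *ASNS*, *PHGDH*, *PSAT1*, *PSPH*, *SHMT2*, *PYCR1*, *ALDH18A1*, *SLC7A5*, *SLC3A2* and *DDIT3*, 10 of the 12538 genes that the arrays could be matched to. They were taken as all probes whose RefSeq transcript belongs to a listed gene in the cattle annotation, which gave 20 of the 43653 probes, and 14 of these passed the filter on dim probes. The members were selected on the measured difference between the breeds at the last stage, which is therefore given as a description with no test.

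RNA from foetal muscle of 2 French beef breeds, the Blonde d'Aquitaine (BA) and the Charolais (CH), was measured at 110, 180, 210 and 260 days post conception (dpc), 1 array per foetus and 21 arrays in all. There were 3, 2, 3 and 2 BA foetuses at the successive stages and 2, 3, 3 and 3 CH foetuses. All were untreated and were conceived by artificial insemination of cows carrying a first calf, with 2 sires in each breed, and the BA foetuses were not genotyped for *MSTN* mutations. The sample labels name the muscle *m. Longissimus thoracis*, whereas the study's methods name *m. Semitendinosus*. The sexes were spread unevenly. BA had 2 males of 3 foetuses at 110 dpc, 0 of 2 at 180 dpc, 1 of 3 at 210 dpc and 0 of 2 at 260 dpc, and CH had 0 of 2, 1 of 3, 2 of 3 and 2 of 3. At 260 dpc both BA foetuses had the same sire. The CH male replicate 1 and the CH female replicate 3 also shared a sire, and the CH male replicate 2 had the other.

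Serine is built from a glycolytic intermediate by 3 enzymes in series, *PHGDH*, *PSAT1* and *PSPH*, and *SHMT2* then splits it in the mitochondrion into glycine and a one-carbon unit for nucleotide synthesis. Proline is made from glutamate by *ALDH18A1* and *PYCR1*, and collagen is rich in it. *ASNS* makes asparagine from aspartate, and *SLC7A5* with its partner chain *SLC3A2* forms the transporter that takes up leucine and other large neutral amino acids. *ATF4*, a transcription factor whose translation rises when the kinases of the integrated stress response are active, is known to drive most of these genes, and *DDIT3* (CHOP) is another of its targets.

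Levels are normalized log2 intensities of 1 probe per gene, the brightest that passed. They are relative to the 75th percentile of the same array, shifted by 2.69 to put the median probe of an average array near 0. Differences are log2 differences, and a gene was called to rise or fall when limma, fitted to all 20132 probes that passed the filter, gave a Benjamini-Hochberg adjusted p under 0.05. All 10 members' probes were well above background on all 21 arrays. The arrays had 29017 to 34502 probes at that level, and their small number limits the precision. The muscle markers *ACTA1*, *CKM*, *DES* and *TNNT3* were among the bright probes at every stage, with a mean over the 4 of 8.32 to 11.13 per array. Because whole muscle was used, fewer cells of a type and less RNA per cell cannot be told apart.

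In BA, expression of 7 members fell between 110 and 260 dpc, 1 rose and 2 did not pass the test, against 52.4% of all probes tested that passed in either direction, 24.8% that fell and 27.6% that rose. The median difference of the members was −1.55, and that of all probes 0.03. In CH, 4 members fell, 2 rose and 4 did not pass, where 52.2% of all probes passed, 24.7% falling and 27.5% rising. The median in CH was −0.29. These comparisons use the same 260 dpc arrays as the breed difference on which the list was selected, which favours falls in BA and rises in CH. The counts, medians and p-values, here and for the single genes below, describe the selected genes and are no independent evidence. The difference between the breeds in this change was not tested.

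*ASNS* (probe A_73_P041301), the asparagine synthetase, fell the furthest of the 10 in BA. Its level was 5.29, 5.53 and 5.31 at 110 dpc, 4.59 and 4.87 at 180 dpc, 4.29, 4.31 and 3.70 at 210 dpc, and 2.66 and 2.56 at 260 dpc. No 2 neighbouring stages overlapped, and from 110 to 260 dpc the change came to −2.77 (SE 0.38, limma adjusted p = 1.2e-05), a 6.80-fold fall. In CH the level was 5.53 and 5.40 at 110 dpc, 4.72, 4.75 and 4.86 at 180 dpc and 3.08, 4.29 and 3.43 at 210 dpc. At 260 dpc the CH foetuses were at 4.37, 5.14 and 3.30, spread over most of the range of the earlier stages. The difference in CH was −1.19 (SE 0.38, limma adjusted p = 0.015). It did not pass without CH replicate 1 at 110 dpc (−1.13, adjusted p = 0.080), replicate 2 at 110 dpc (−1.26, adjusted p = 0.053) or replicate 3 at 260 dpc (−0.71, adjusted p = 0.073), or with slide as a block (−1.08, adjusted p = 0.19). The second *ASNS* probe fell by 2.58 in BA and differed by −1.09 in CH (limma adjusted p = 0.056).

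**Figure D1:**
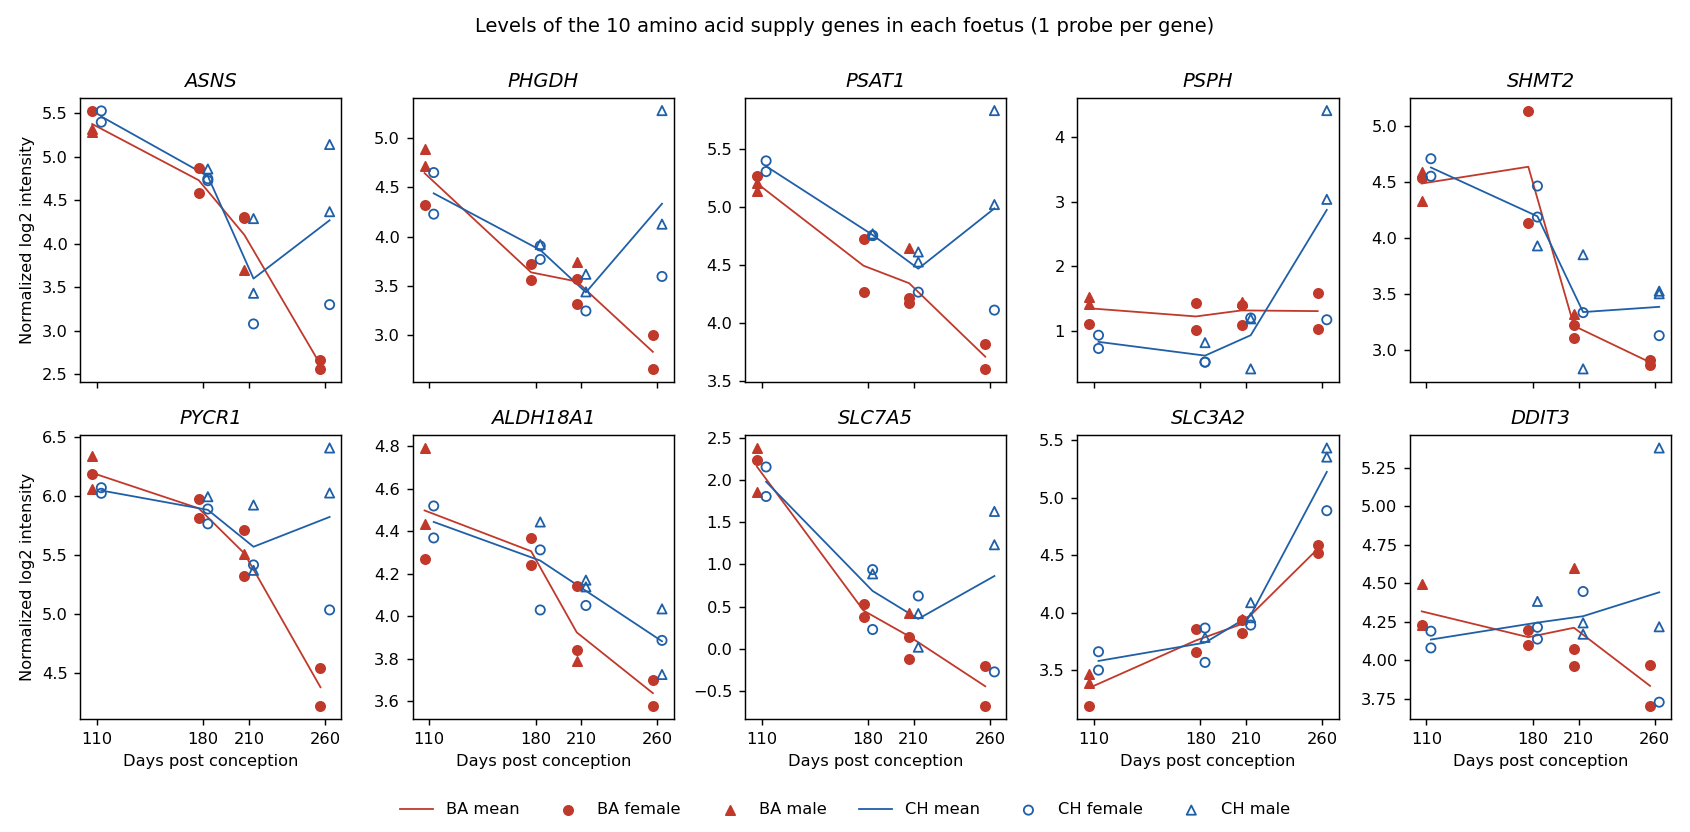
Normalized log2 intensity of the 10 genes (vertical axes, which differ between panels) against days post conception, with 1 point per foetus, filled red for BA and open blue for CH, circles for females and triangles for males, and lines through the group means. The BA means of *ASNS*, *PHGDH*, *PSAT1*, *PYCR1*, *ALDH18A1* and *SLC7A5* are lower at each stage than at the one before, *SLC3A2* is higher, and the CH points at 260 dpc are widely spread in most panels.

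Of the 3 enzymes of the serine chain, *PHGDH* and *PSAT1* fell in BA and *PSPH* did not pass. *PHGDH* (A_73_P039976), the first step, fell in BA by 1.81 (SE 0.32, limma adjusted p = 1.6e-04), from 4.72, 4.32 and 4.89 on the arrays of 110 dpc to 3.00 and 2.66 on those of 260 dpc. *PSAT1* (A_73_121203), the second, fell too, with a difference of −1.50 (SE 0.31, limma adjusted p = 6.6e-04), from 5.14, 5.27 and 5.21 to 3.81 and 3.60. The stages were fully apart in both genes. In CH neither passed, with differences of −0.11 and −0.36. Both fell in CH without replicate 2 at 260 dpc, *PHGDH* by 0.58 (limma adjusted p = 0.041) and *PSAT1* by 0.79 (limma adjusted p = 0.012). Among female foetuses alone, with 1 CH female at 260 dpc, the differences were −0.84 and −1.24.

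*PSPH* (A_73_P268996), which removes the phosphate in the last step, had another profile. It stayed between 1.01 and 1.58 on all 10 BA arrays, and the difference between 260 and 110 dpc was −0.04 (SE 0.56). In CH it was at 0.72 and 0.93 at 110 dpc, 0.51, 0.51 and 0.81 at 180 dpc, and 1.20, 0.41 and 1.18 at 210 dpc. At 260 dpc the 2 CH males reached 3.04 and 4.42, while the CH female was at 1.17, within the range of 210 dpc. The rise in CH from 110 dpc was 2.05 (SE 0.56, limma adjusted p = 0.0055), or 4.14-fold. Among female foetuses alone, with 1 CH female at 260 dpc, it was 0.34. The mitochondrial enzyme *SHMT2* (A_73_109262) fell in both breeds, by 1.60 in BA (SE 0.27, limma adjusted p = 9.5e-05) and by 1.24 in CH (SE 0.27, limma adjusted p = 9.2e-04).

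In the proline branch, *ALDH18A1* (A_73_P040201), which opens the route from glutamate, fell in both breeds, by 0.86 in BA (SE 0.16, limma adjusted p = 2.3e-04) and by 0.56 in CH (SE 0.16, limma adjusted p = 0.0068). The fall in CH did not pass without CH replicate 2 at 110 dpc (−0.49, adjusted p = 0.069). *PYCR1* (A_73_113219), which closes the route, was at 6.34, 6.19 and 6.06 in BA at 110 dpc and at 4.54 and 4.22 at 260 dpc, and fell by 1.82 (SE 0.27, limma adjusted p = 3.1e-05). The CH foetuses were at 6.02 and 6.07 at 110 dpc and at 6.03, 6.41 and 5.03 at 260 dpc, overlapping widely, and the difference of −0.22 did not pass. Among female foetuses alone, with 1 CH female at 260 dpc, the difference in CH for this probe was −1.01. A second probe of *PYCR1* fell by 0.94 in BA (limma adjusted p = 0.041).

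The chains of the leucine transporter moved in opposite directions. *SLC7A5* (A_73_P040976), the chain that carries the amino acid, fell by 2.60 in BA (SE 0.39, limma adjusted p = 3.2e-05) and by 1.12 in CH (SE 0.39, limma adjusted p = 0.025). Its fall in CH did not pass without any 1 of CH replicates 1 (−1.29, adjusted p = 0.051) and 2 (−0.94, adjusted p = 0.15) at 110 dpc and replicate 3 at 260 dpc (−0.55, adjusted p = 0.11), nor with slide as a block (−0.64, adjusted p = 0.32) or with no filter on dim probes (adjusted p = 0.051). *SLC7A5* was the dimmest member, with a mean level of 0.79 over all arrays. Its BA mean at 260 dpc was −0.45, under the filter's limit of 0, and its other probes did not pass the filter. *SLC3A2* (A_73_P039191), the anchoring chain that also serves other transporters, rose by 1.21 in BA (SE 0.15, limma adjusted p = 3.5e-06) and by 1.65 in CH (SE 0.15, limma adjusted p = 1.0e-07). Its level was 3.19 to 3.47 in BA at 110 dpc and 4.52 and 4.59 at 260 dpc, and in CH it went from 3.50 and 3.66 to 5.36, 5.43 and 4.89. It was the only member to rise in both breeds. The transcription factor *DDIT3* (A_73_P169012) did not pass in either, at −0.48 in BA and 0.31 in CH. In BA it passed without CH replicate 1 at 260 dpc (adjusted p = 0.035) and as the mean of its probes (−0.72, adjusted p = 0.047). The 2 passing probes of *DDIT3* were both lower in BA at 260 dpc than at 110 dpc, the dimmer falling by 0.96 (limma adjusted p = 0.011). In CH they differed in sign, the dimmer being at −0.28, and neither passed.

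Step by step, the group mean of 6 members in BA and 7 in CH was lower at each stage from 110 to 210 dpc. The share of all probes with such a pattern was not counted, so these numbers only describe the members. Between 110 and 180 dpc, 2 members fell in BA, *SLC7A5* by 1.71 (SE 0.39, limma adjusted p = 0.0084) and *PHGDH* by 1.01 (SE 0.32, limma adjusted p = 0.046), where 14.2% of all probes passed. In CH 1 member fell, *SLC7A5* by 1.30 (SE 0.39, limma adjusted p = 0.042), where 11.4% passed. Both calls with an adjusted p above 0.04 were also lost when single arrays of other groups were left out. The fall of *PHGDH* in BA, where 2 of 3 foetuses at 110 dpc and 0 of 2 at 180 dpc were male, was smaller with sex as a covariate (−0.71, limma adjusted p = 0.14). Among females alone, with 1 BA female at 110 dpc, it was −0.69. The fall of *SLC7A5* in BA was lost only without BA replicate 1 at 180 dpc among the arrays left out in turn (−1.63, adjusted p = 0.082).

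Between 180 and 210 dpc 1 member fell in BA, *SHMT2* by 1.42 (SE 0.27, limma adjusted p = 0.0098), where 3.07% of all probes passed. The 2 BA foetuses at 180 dpc were at 5.14 and 4.13, all above the 210 dpc foetuses, of which none exceeded 3.32, and without the first of them the difference was −0.92 (adjusted p = 0.18). The second passing probe of *SHMT2* fell by 1.27 (limma adjusted p = 0.018). In CH no member passed in limma, where 1.63% of all probes did. *SHMT2* (−0.85, adjusted p = 0.084) and *ASNS* (−1.18, adjusted p = 0.095) had an unadjusted p under 0.05, as had 14.7% of all probes, and no other member did. The second probe of *SHMT2* fell in CH, by 1.00 (limma adjusted p = 0.047).

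Over the last step, from 210 to 260 dpc, most members had opposite signs in the breeds. The members were selected on the breed difference of these same 260 dpc arrays, which favours opposite signs, so the counts and p-values of this step describe the selected genes and are no independent evidence. In BA *ASNS* fell by 1.49 (SE 0.38, limma adjusted p = 0.011) and *PYCR1* by 1.13 (SE 0.27, limma adjusted p = 0.0075), and *SLC3A2* rose by 0.65 (SE 0.15, limma adjusted p = 0.0050), where 21.1% of all probes passed. The second *PYCR1* probe was at −0.56 and did not pass, and the second *ASNS* probe fell by 1.56. In CH *SLC3A2* rose by 1.25 (SE 0.13, limma adjusted p = 6.3e-06), *PSPH* by 1.95 (SE 0.50, limma adjusted p = 0.0063) and *PHGDH* by 0.90 (SE 0.29, limma adjusted p = 0.022), where 36.2% passed. The median of the members was −0.48 in BA, with 9 of 10 negative, and 0.51 in CH, with 9 of 10 positive.

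These counts moved with single foetuses. Without BA replicate 2 at 260 dpc, which left 1 array in that group, no member passed in BA, although the differences were −1.44 for *ASNS*, −0.97 for *PYCR1* and 0.62 for *SLC3A2*. Without CH replicate 2 at 260 dpc, which adds to the common estimate of the spread, 5 did. Without CH replicate 3 at 260 dpc, the female, 7 members rose in CH, and without CH replicate 1 at 210 dpc 2 did. The share of all probes that passed with an array left out is not given. These counts therefore do not tell a change in the members from one in all probes. The rise of *PHGDH* in CH did not pass without that foetus (0.81, adjusted p = 0.076) or without CH replicate 2 at 260 dpc (0.43, adjusted p = 0.13), nor with the deposited, unscaled values (0.44, adjusted p = 0.30). Among female foetuses alone, which left 1 CH foetus at 210 dpc and 1 at 260 dpc, the late change in CH was −0.03 for *PSPH*, 0.35 for *PHGDH* and −0.72 for *DDIT3*. With 1 foetus at each stage, neither group has a spread of its own.

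**Figure D2:**
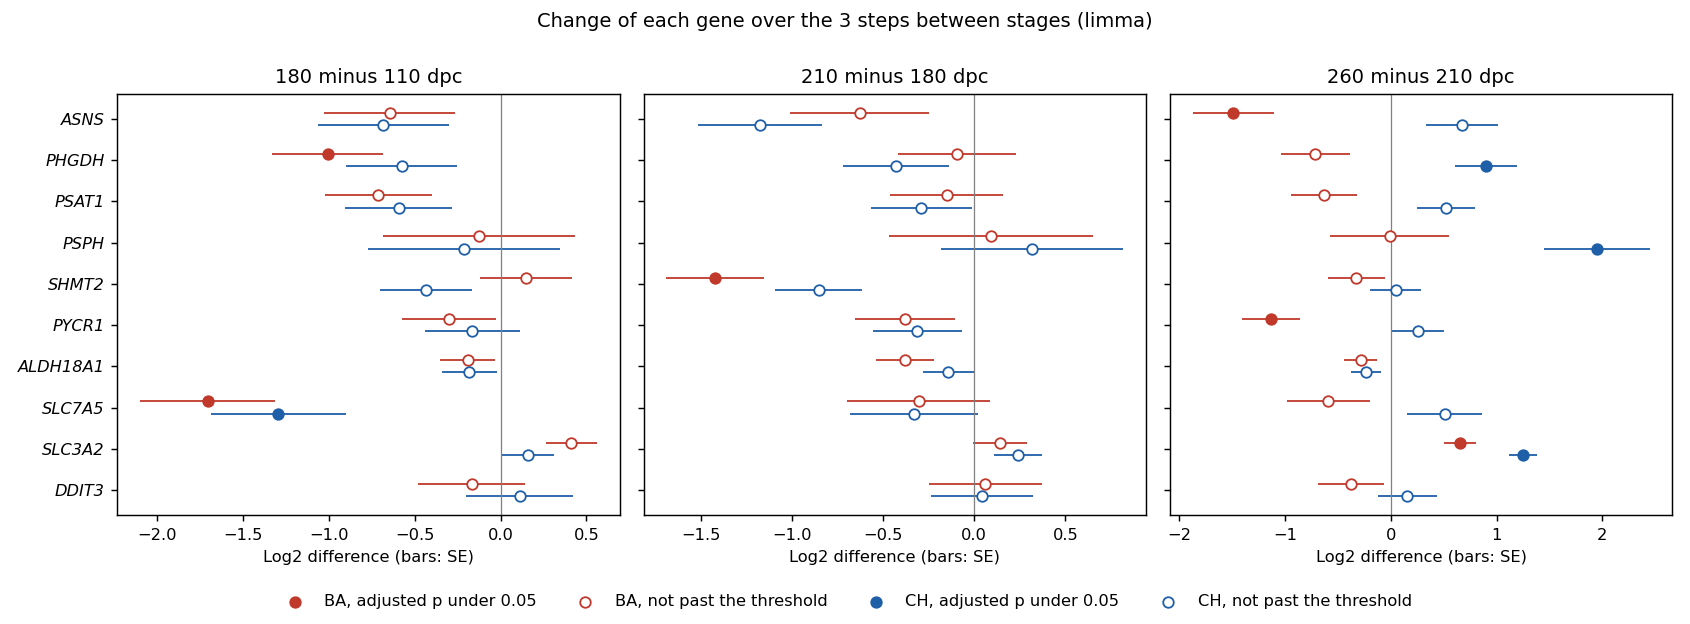
Log2 difference between successive stages for each gene (horizontal axes), in BA (red) and CH (blue), with bars of 1 SE from limma and filled points where the adjusted p was under 0.05. From 210 to 260 dpc the CH points lie right of 0 for 9 of the 10 genes and the BA points left of 0 for 9 of the 10.

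The counts that follow are subject to the same selection on the 260 dpc arrays. Set against the 3 foetuses of their own breed at 210 dpc, both BA foetuses at 260 dpc were lower than all 3 in 7 members, *ASNS*, *PHGDH*, *PSAT1*, *SHMT2*, *PYCR1*, *ALDH18A1* and *SLC7A5*, as were 25.2% of all probes. Both CH males at 260 dpc were higher than all 3 in 7 members, as were 28.3% of all probes. These were *ASNS*, *PHGDH*, *PSAT1*, *PSPH*, *PYCR1*, *SLC7A5* and *SLC3A2*. The CH female was lower than all 3 in 5 members, *PSAT1*, *PYCR1*, *ALDH18A1*, *SLC7A5* and *DDIT3*, as were 34.5% of all probes. For *PSAT1*, *PYCR1* and *SLC7A5* the CH males and the CH female thus lay on opposite sides of the 210 dpc foetuses.

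Before 260 dpc no member passed the test between the breeds. At 110, 180 and 210 dpc 0 of 10 members passed in limma, where 0.273%, 0.00993% and 0% of all probes passed, and none had an unadjusted p under 0.05 at any of these stages, where 13.8%, 6.17% and 5.24% of all probes had. The lowest adjusted p was 0.51 at 110 dpc, 0.85 at 180 dpc and 1.00 at 210 dpc. The median BA minus CH difference of the members was 0.10, −0.02 and −0.08 at the 3 stages. The widest were those of *PSPH* at 110 dpc (0.52, SE 0.56) and 180 dpc (0.61, SE 0.56) and of *ASNS* at 210 dpc (0.50, SE 0.34). Some members did not overlap between the breeds all the same. The share of all probes without overlap was not counted, so these values only describe the members. *PSPH* was at 1.11 to 1.53 in BA and 0.72 and 0.93 in CH at 110 dpc, and at 1.01 and 1.43 against 0.51 to 0.81 at 180 dpc. *PSAT1* was lower in BA, at 5.14 to 5.27 against 5.31 and 5.40, and at 4.27 and 4.72 against 4.75 to 4.77. At 110 dpc *SLC3A2* was at 3.19 to 3.47 in BA against 3.50 and 3.66, and *DDIT3* at 4.23 to 4.49 against 4.08 and 4.19. At 180 dpc *PHGDH* was at 3.55 and 3.72 in BA against 3.77 to 3.92. The SE is common to all groups. Of the within-group sums of squares of *PSPH* and *PSAT1*, 85.5% and 81.4% came from CH at 260 dpc, so smaller differences could be missed. For the change from 110 to 210 dpc no member passed between the breeds either (interaction in limma, 0 of 10 by adjusted or unadjusted p, lowest adjusted p = 0.80). Of all probes 0% passed and 7.84% had an unadjusted p under 0.05.

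At 260 dpc, where the members were chosen, the mean of all 10 was lower in BA than in CH, and the median difference was −1.29, against −0.01 over all probes. The differences were −1.66 for *ASNS*, −1.57 for *PSPH*, −1.50 for *PHGDH*, −1.44 for *PYCR1*, −1.31 for *SLC7A5* and −1.28 for *PSAT1*. They were smaller for the other members, −0.67 for *SLC3A2*, −0.61 for *DDIT3*, −0.50 for *SHMT2* and −0.24 for *ALDH18A1*. Both BA foetuses lay below all 3 CH foetuses in 7 of the 10, as they did for 10.1% of all probes. The exceptions were *PSPH*, *SLC7A5* and *DDIT3*, in each of which the CH female lay between the BA foetuses.

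Array by array, *PHGDH* was at 3.00 and 2.66 in BA, 4.13 and 5.28 in the CH males and 3.59 in the CH female. *PSAT1* was at 3.81 and 3.60 in BA, 5.02 and 5.83 in the CH males and 4.11 in the CH female. In both genes the order of the 3 CH foetuses was that of *ASNS* and *PSPH*, with male replicate 2 highest and the female lowest.

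*PYCR1* kept to the same order, with 4.54 and 4.22 in BA, 6.03 and 6.41 in the CH males and 5.03 in the CH female. So did *SLC7A5*, with −0.21 and −0.68 in BA, 1.23 and 1.63 in the CH males and −0.27 in the CH female. *SLC3A2* had 4.52 and 4.59 in BA, 5.36 and 5.43 in the CH males and 4.89 in the CH female, with the males nearly level.

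The other 3 members did not follow this order. *SHMT2* was at 2.87 and 2.91 in BA, 3.52 and 3.50 in the CH males and 3.13 in the CH female. *ALDH18A1*, the most even member, was at 3.70 and 3.58 in BA, 3.73 and 4.03 in the CH males and 3.89 in the CH female. *DDIT3* was at 3.97 and 3.70 in BA, 5.38 and 4.22 in the CH males and 3.73 in the CH female, so that here male replicate 1 stood apart and not replicate 2.

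**Figure D3:**
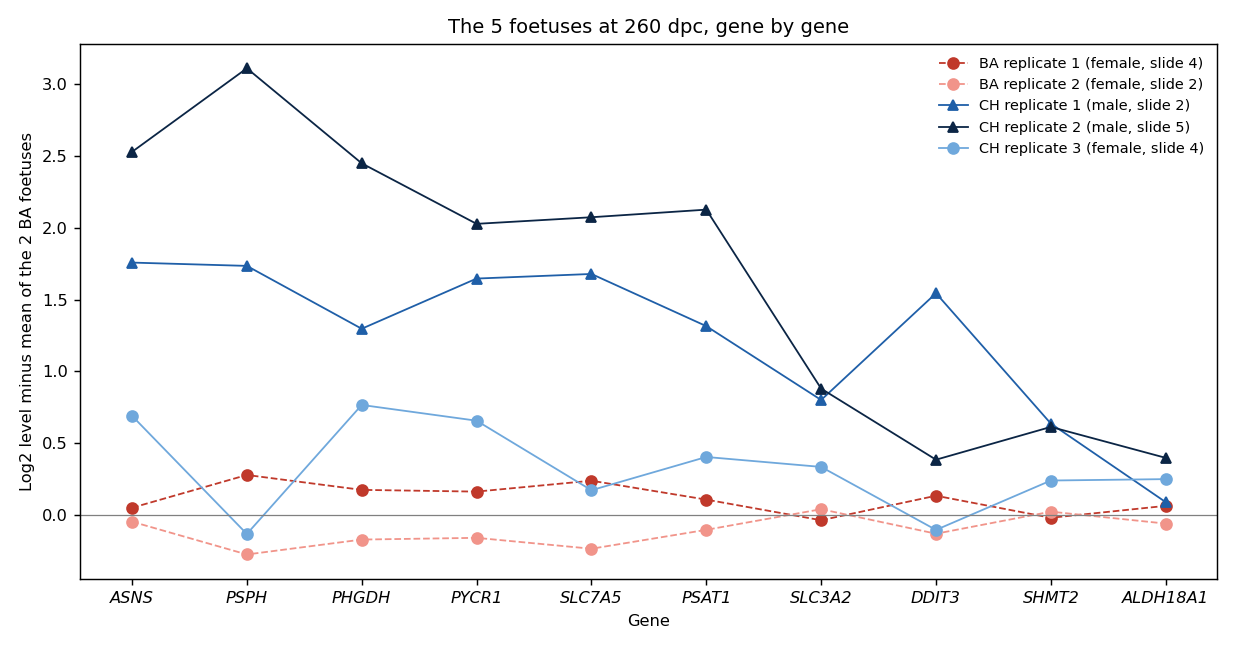
Log2 level of each gene (horizontal axis) in each of the 5 foetuses at 260 dpc, less the mean of the 2 BA foetuses, with triangles for males and circles for females. The CH males, replicates 1 and 2, lie above the 3 females for every gene but *ALDH18A1*, and the CH female lies between them and BA for most genes.

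Over the 10 members, CH male replicate 2 was the highest CH foetus in 8 and the CH female was the lowest in 9. Both CH males were above all 3 female foetuses of 260 dpc, CH and BA, in 9 members, as they were for 8.73% of all probes. The selection on the breed difference of these arrays favours such a count. The median difference between the CH males and the CH female was 1.14. The slides allowed 2 comparisons within a slide. On slide 4, which held a BA and a CH foetus that were both female, BA was lower in 7 of 10 members, with a median difference of −0.28. On slide 2, which held a BA female and a CH male, BA was lower in 10 of 10, with a median of −1.57. The second CH male was on slide 5 with no BA foetus of that age. Since both BA foetuses were female, breed and sex cannot be told apart in the comparison with the CH males. Among females alone the median breed difference was −0.29, from −0.77 for *PHGDH* and −0.69 for *ASNS* to 0.13 for *PSPH*.

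With sex added to the fit over all 21 arrays, no member passed in limma, where 0.0695% of all probes did. All 10 were higher in males, with a median of 0.33, and 4 had an unadjusted p under 0.05 against 8.36% of all probes, *PHGDH* (0.45), *PSAT1* (0.40), *PYCR1* (0.32) and *SLC3A2* (0.20). This fit includes the 260 dpc arrays with which the members were selected, where the only males were CH. The selection can thus favour higher values in males, and these counts are no independent evidence. Without the 3 CH foetuses of 260 dpc, a comparison added after the values had been seen, 9 of 10 were higher in males, the median was 0.12, and 1, *PHGDH* (0.29), had an unadjusted p under 0.05.

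The spread among the CH foetuses at 260 dpc was wide in most members. The SD of *PSPH* was 1.63, that of *SLC7A5* 1.00 and that of *ASNS* 0.92, and in no other group did these genes exceed 0.45, 0.40 and 0.62. In 8 of the 10 members the SD was higher in this group than in all 7 others, as was the case for 16.4% of all probes. The members were selected with these arrays, and high values in single CH foetuses raise both the CH mean and the SD. The count is therefore no independent evidence. *SHMT2* and *ALDH18A1* were the exceptions. The median SD of the members was 0.85 in this group and 0.11 to 0.25 in the others, and the median over all probes in this group was 0.17.

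Once each group's mean had been subtracted, most pairs of members had a positive correlation. Over the 45 pairs the median Pearson's r was 0.46, 42 were positive and 22 were above 0.5, and the median Spearman's rho was 0.31. Every 20th probe tested gave a median pairwise r of 0.01. The highest r were 0.86 between *ASNS* and *PYCR1* and 0.85 between *PHGDH* and *PSAT1*. By permutation of foetuses within groups (100000 resamples), the first pair had a p of 0.022 for r and 0.044 for rho (0.61), and no pair passed for either statistic after adjustment over the 45, the *ASNS* and *PYCR1* pair having an adjusted p of 0.32 for r and 0.46 for rho.

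The co-variation rested on the CH foetuses of 260 dpc, with which the members were also selected. These 3 arrays held between 53.0% and 85.5% of the within-group sum of squares of 8 members, and 7.40% and 12.2% of that of *SHMT2* and *ALDH18A1*. Without them, an exclusion added after the values had been seen, the median r over 18 foetuses was 0.18, with 31 of 45 pairs positive and 4 above 0.5. Leaving out the 2 foetuses farthest from the median for each pair gave a median of 0.17, with 2 pairs above 0.5. *ASNS* with *PYCR1* stayed at 0.61 both ways. Against the mean of the other 9 members, *PYCR1* had an r of 0.91 over all foetuses and 0.67 without the 3, and *PHGDH* 0.83 and 0.66. *PSPH* went from 0.82 to −0.09 and *ASNS* from 0.69 to −0.13.

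**Figure D4:**
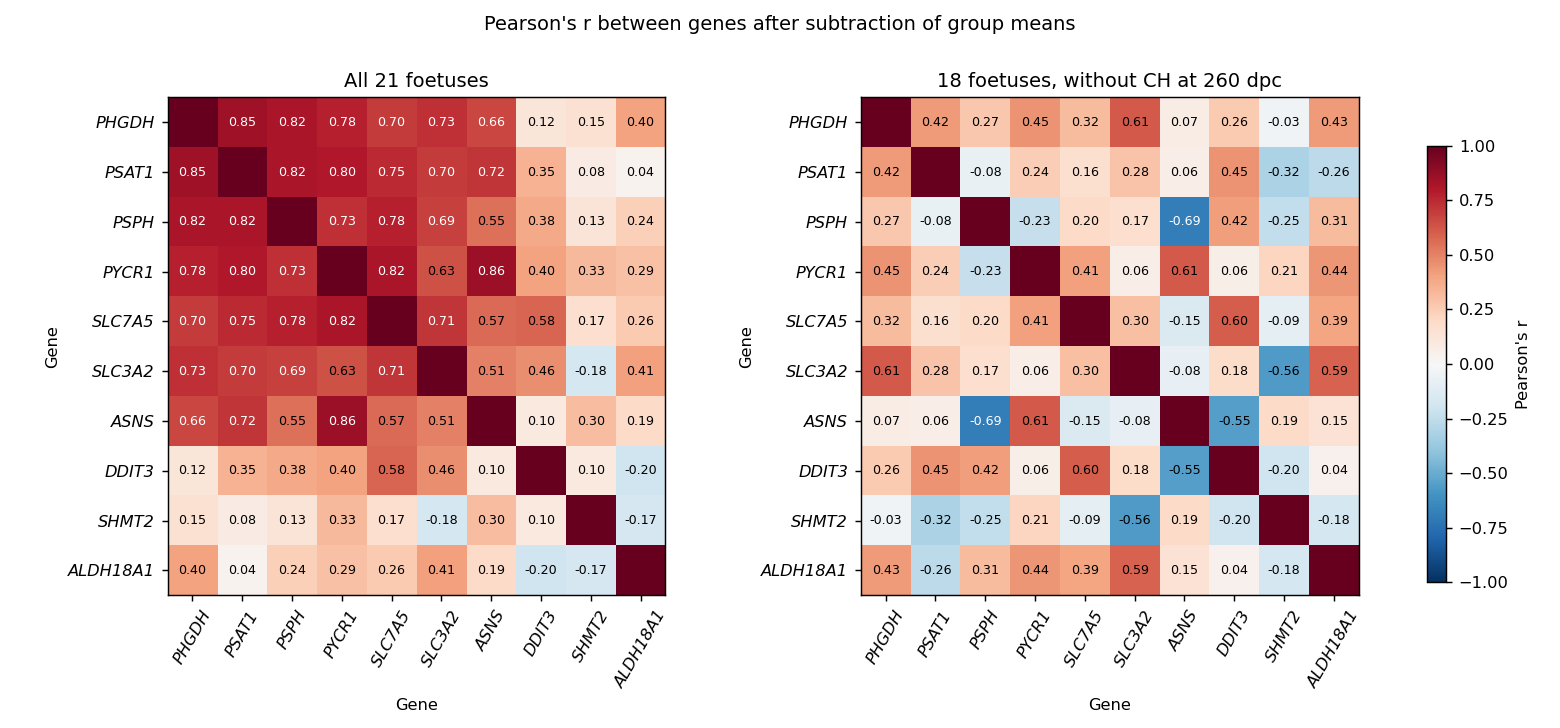
Pearson's r between each pair of the 10 genes after the mean of each breed and stage group was subtracted, over all 21 foetuses (left) and over 18 foetuses without the CH group of 260 dpc (right), with colour from −1 to 1. The block of high values among *PHGDH*, *PSAT1*, *PSPH*, *PYCR1*, *SLC7A5*, *SLC3A2* and *ASNS* on the left is largely absent on the right.

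The genes outside the list whose centred values were most like the mean of the members, over 21 foetuses and with no test, were *MFSD3* (r = 0.88), *YARS1* (0.87), *PCK2* (0.84), *GARS1* (0.84), *PTPRR* (0.83), *CST6* (0.82), *KNOP1* (0.80), *PRKAG3* (0.80), *AGPAT1* (0.79) and *MYF6* (0.79). The median r of all probes tested was 0.01. *YARS1* and *GARS1* load tyrosine and glycine onto their tRNAs, and *PCK2* is the mitochondrial enzyme that makes phosphoenolpyruvate. *GARS1* was at 4.93 and 5.23 in BA at 260 dpc, 6.35 and 6.69 in the CH males and 5.38 in the CH female, the CH foetuses being in the order they had for *ASNS*. *PCK2* was at 0.46 and −0.19, 2.03 and 1.92, and 0.07. *MYF6*, a muscle regulatory factor, was at 4.83 and 4.68, 4.94 and 5.58, and 4.54, and the BA foetuses overlapped with those of CH. Without the 3 CH foetuses r fell to 0.61 for *YARS1*, 0.47 for *GARS1*, 0.46 for *PCK2* and −0.12 for *KNOP1*.

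The regulators and neighbours of these pathways were followed through lists of genes. Of 21 other genes of the integrated stress response, 16 had a probe and 11 passed the filter. From 110 to 260 dpc 5 rose and 2 fell in BA, and 6 rose and 1 fell in CH. The counts of this list and of the 4 below are to be read against the 52.4% of all probes in BA and 52.2% in CH that passed over the same stages. *NUPR1* rose by 2.71 in BA and 3.88 in CH, and *ATF3*, a transcription factor of early stress responses, by 3.59 and 2.97, while *EIF2AK3*, the kinase that senses unfolded protein, fell by 0.67 and 0.55.

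*ATF4* itself was among the bright probes on all arrays. It rose in CH by 1.03 from 110 to 260 dpc (SE 0.19, limma adjusted p = 2.6e-04), of which 0.81 came after 210 dpc (limma adjusted p = 0.0016). In BA the difference was 0.38 and did not pass. At 260 dpc it was at 8.72 and 8.86 in BA, 9.91 and 9.18 in the CH males and 9.22 in the CH female, with no overlap between the breeds. *TRIB3* and *CHAC1*, targets of *ATF4*, were dim and under the filter. *TRIB3* was at −0.55 and −1.26 in BA, 1.63 and −0.50 in the CH males and −0.70 in the CH female. *CHAC1* was at −0.35 and −0.01, 1.25 and 0.12, and −0.48, and in both genes male replicate 1 was the highest, as for *DDIT3*.

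Of the list of 20 other serine, glycine and one-carbon genes, all had a probe and 10 passed the filter. From 110 to 260 dpc 3 rose and 2 fell in BA, and 5 rose and 2 fell in CH. *DLD*, shared by the glycine cleavage system and other mitochondrial complexes, rose by 1.45 and 1.48, and *GCAT*, which breaks down threonine to glycine, by 0.66 and 1.19. *TYMS*, the thymidylate synthase, fell by 1.06 and 1.44.

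*SHMT1*, the cytosolic counterpart of *SHMT2*, differed by 0.31 in BA, which did not pass, and rose by 0.94 in CH (SE 0.17, limma adjusted p = 1.7e-04), where *SHMT2* fell. *MTHFD2*, the mitochondrial enzyme next in line after *SHMT2*, was dim and under the filter. At 260 dpc it was at −1.33 and −1.48 in BA, 0.30 and 0.89 in the CH males and −1.47 in the CH female, which lay with BA.

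Of 19 other proline, glutamate and aspartate genes, 17 had a probe and 13 passed the filter. In BA 4 rose and 1 fell, and in CH 4 rose and 3 fell. *GOT1* and *GOT2*, which exchange aspartate and glutamate, rose by 1.43 and 1.86 in BA and by 1.58 and 2.03 in CH.

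Of 24 amino acid transporters, 18 had a probe and 11 passed the filter, with 3 higher and 3 lower in BA and 3 and 4 in CH. *SLC1A3*, which carries glutamate, rose by 1.18 and 1.92 and *SLC38A2*, which carries small neutral amino acids, by 0.82 and 0.80. *SLC25A22*, the mitochondrial glutamate carrier, fell by 1.70 and 1.55, and *SLC7A7*, another partner of *SLC3A2*, by 1.73 and 1.38. Of 15 unfolded protein response genes, 13 had a probe and 12 passed the filter. In BA 7 fell and 2 rose, and in CH 7 fell and 1 rose, among them *CRELD2*, which fell by 1.12 and 1.58, and *PDIA4*, which fell by 1.09 and 1.26. *HERPUD1* rose by 0.48 and 0.69. Between the breeds, 0 of the 57 genes tested in these 5 lists passed in limma at 110, 180 or 210 dpc, and 9, 3 and 1 had an unadjusted p under 0.05, where 13.8%, 6.17% and 5.24% of all probes had. At 260 dpc the median BA minus CH difference was −0.13 in the serine, glycine and one-carbon list (9 of 10 genes lower in BA), −0.03 in the transporters (6 of 11), −0.01 in the integrated stress response (6 of 11), 0.0044 in the proline, glutamate and aspartate list (6 of 13) and 0.12 in the unfolded protein response (3 of 12), against −0.01 over all probes.

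Cell markers also moved over the stages. The mean of 4 of the 6 muscle fibre markers went from 8.32 to 8.71 on the BA arrays of 110 dpc to 10.91 and 11.08 at 260 dpc, and from 8.79 and 8.85 to between 10.74 and 11.13 in CH. The mean of 3 of the 6 markers of proliferating cells, *CCNB1*, *CDK1* and *PCNA*, went from between 2.59 and 2.87 to 1.02 and 1.03 in BA, and from 2.71 and 2.95 to between 0.18 and 0.99 in CH. Their part in the changes of the members between stages was not tested.

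At 260 dpc no marker list was higher in all 3 CH foetuses than in both of BA. Muscle fibre markers were at 10.91 and 11.08 in BA, 10.74 and 11.13 in the CH males and 10.97 in the CH female. The range was 1.02 to 1.03 in BA and 0.18 to 0.99 in CH for proliferating cells, 6.69 to 7.07 and 6.47 to 7.15 for fibroblasts (5 of 5 markers), 3.23 to 3.33 and 2.83 to 3.21 for endothelium (4 of 4) and 2.15 to 2.20 and 1.85 to 2.17 for leukocytes (5 of 5). It was 0.96 to 1.68 and 0.07 to 1.41 for red cells (5 of 6), 3.35 to 3.88 and 3.45 to 4.21 for nerve (3 of 3) and −1.36 to 0.33 and −1.66 to −0.36 for adipocytes (3 of 4). The list means of proliferating cells and of endothelium were lower in all 3 CH foetuses than in both of BA, by narrow gaps. Within the endothelial list the group means of *PECAM1*, *CDH5* and *KDR* were lower in CH. That of *VWF* was higher, at 3.34 in CH and 2.80 in BA. The share of all probes with such a gap was not counted. Among the CH foetuses, the endothelial, red cell and adipocyte lists were highest in male replicate 2 and lowest in the female, as most members were, and the part of these cells in the spread of the members was not tested. Of the defining markers, *LEP* was well above background on 3 of 21 arrays, *CD3E* on 13 and *SLC4A1* on 1.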

How the data were processed

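Muscle RNA of 21 foetuses was labelled with Cy3 and hybridized to 4x44K bovine arrays, 1 foetus per array. The authors made the intensity of each spot with Agilent Feature Extraction 10.7, with background and multiplicative detrending and no background subtraction. The study's methods also mention normalization between arrays, which the deposited values do not show. Of the 649670 values of the deposited log2 table, 649643 (99.9958%) were within 0.01 of the log2 of this intensity, and that table was used as an alternative. Replicates are separate foetuses per the labels.

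Control spots and 258 outlier spot values were left out, the spots of a probe were averaged, and log2 values were reduced by each array's 75th percentile (525 to 1174 intensity units). No value was saturated. Probes were named through RefSeq accessions in the annotation of assembly ARS-UCD2.0, which matched 26628 probes. Since its assembly is not that of the array design, no coordinates are given. A probe passed with a group mean above 0 in at least 7 of 8 groups. Comparisons were fitted with limma 3.58.1 (R 4.3.3, data.table version 1.17.8, jsonlite 2.0.0), with 1 mean per breed and stage, 13 residual and 3.79 prior degrees of freedom, and were tested on simulated data. Each gene is its brightest passing probe.

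The members, gene lists and comparisons were chosen with earlier results of these data known. The text names all members, 6 genes whatever their values, up to 2 rises and 2 falls per list that passed in both breeds, and the 10 genes most like the members. Some genes that this rule takes in are not reported here. Alternatives were normexp background correction (offset 50), quantile and median scaling, the deposited table, other filters, the mean of a gene's probes, a trended and robust variance, sex as a covariate, females alone, slide, scan day or replicate number as a block, and each array left out. Where 1 array remained in a group, limma assumed it to vary like the others.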

Additional observations from a re-analysis of the deposited data

Results flagged for a closer look

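*PHGDH* was the only member for which every foetus of 1 breed at 260 dpc lay on 1 side of its breed's mean at 210 dpc and every foetus of the other breed on the opposite side. The changes were −0.54 and −0.89 in BA, and 0.69 and 1.85 in the CH males and 0.16 in the CH female. The change in BA minus that in CH was −1.61, and this difference was not tested because it contains the breed difference at 260 dpc. The CH female lay within the range of the CH foetuses at 210 dpc, 3.24 to 3.62.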

How the results depend on the processing

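Calls between 260 and 110 dpc in BA were 8 to 9 with each array left out in turn, and those in CH 3 (without CH replicate 2 at 110 dpc) to 8 (without CH replicate 2 at 260 dpc). The shares of all probes that passed with arrays left out are not given, so such counts only describe how the members' calls moved. The single steps held few calls and moved more. From 110 to 180 dpc the count in BA ran from 0 to 4 with arrays left out and was 1 with normexp, the deposited table, no filter, a detection filter, scan day as a block and the replicate block. In CH it ran from 0 to 1 and was 0 with the deposited table, no filter, a detection filter, scan day as a block and the replicate block, and 3 among females alone. From 180 to 210 dpc the count in BA was 0 to 1 with arrays left out and 0 with the deposited table, females alone and slide as a block, and in CH it was 0 to 2 and 1 among females alone. From 210 to 260 dpc it was 0 to 5 in BA, and 1 with slide as a block, and 2 to 7 in CH. The replicate block moved no other count of calls by over 1.5 times. Arrays of the same number had a median correlation of 0.01 over 66 pairs and those of other numbers −0.01 over 126, and 8 of 21 arrays correlated best with one of their own number, so the numbers do not pair the foetuses. Counts between breeds before 260 dpc, for the interaction and between sexes were 0 with every array left out.

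The median breed difference at 260 dpc ran from −1.78 (without CH replicate 3) to −0.83 (without CH replicate 2) and was −0.29 among females alone. The median pairwise correlation ran from 0.19 (without CH replicate 3 at 260 dpc) to 0.55 and was 0.15 without all arrays of 260 dpc. The deposited table is not scaled between arrays, and the median of all probes from 110 to 260 dpc was −0.39 in BA and −0.34 in CH, with 1733 probes higher and 5287 lower in BA against 5556 and 4989 on the scale used. With median scaling these were 6501 and 3621, with a median of 0.16. On the deposited table *SLC3A2* did not pass in BA from 210 to 260 dpc (0.29, limma adjusted p = 0.55), and the difference of *DDIT3* in CH from 110 to 260 dpc was −0.06. The causes were not tested. Dim genes such as *MTHFD2*, *TRIB3* and *CHAC1* are limited by their signal over background.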
